A study of Mus musculus with 10 samples.

Results

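The genes described here code for the subunits of the voltage-gated sodium and calcium channels of the mouse. They were taken by symbol from the deposited table, as the protein-coding genes named Scn followed by a number and a or b, or named Cacna1, Cacna2d, Cacnb or Cacng followed by a letter or number. This gave 40 of the 55487 genes in the table. The rule used no measured value, though earlier results of these data were known when the genes were chosen. They comprise 10 sodium channel pore genes, 4 sodium channel beta genes, 10 calcium channel pore genes, 4 alpha2delta genes, 4 calcium channel beta genes, 6 genes of the transmembrane AMPA receptor regulatory proteins (TARPs) and 2 muscle-type gamma genes.

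A voltage-gated channel opens its pore when the membrane depolarises. Sodium channels carry the upstroke of the action potential, and their beta subunits adjust gating and link the channel to neighbouring proteins. Calcium channels turn depolarisation into calcium entry, which triggers transmitter release, dendritic signalling and gene expression, and their beta and alpha2delta subunits set how many channels reach the membrane. The gamma genes share a fold, but most of them serve AMPA-type glutamate receptors, which they carry to the synapse.

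Cells carrying GFP were sorted 1 month after injection of a virus into the dentate gyrus, the input stage of the hippocampus, and their RNA was sequenced. Each of the 10 libraries pooled 3 to 4 animals. All animals carried CamKII-Cre, a driver of forebrain excitatory neurons. The group NC-GFP (n = 3) had genotype CamKIIcre/- and received AAV-FLEX-GFP. The group TDP-43cKO-GFP (n = 3, called cKO-GFP below) had genotype TDP-43flox/flox::CamKIIcre/- and received the same vector. The group TDP-43cKO-TDP-43mNLS (n = 4, called mNLS below) had that floxed genotype and received AAV-FLEX-TDP-43mNLS-GFP. TDP-43, the product of Tardbp, binds RNA and acts in splicing and RNA stability. No source used here gives the animals' age, the gates of the sort, the part of Tardbp that was removed or what the name mNLS stands for. All p-values measure the spread between these pools.

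Levels are given as CPM, counts scaled to a common library size. Library totals lay between 17164162 and 29204279 estimated counts. Tardbp stood at 143, 128 and 121 CPM in NC-GFP, 120, 122 and 108 in cKO-GFP, and 206, 218, 337 and 185 in mNLS, so the gene-level count does not separate the floxed GFP libraries clearly from NC-GFP. Whether reads of the vector count toward Tardbp was not tested. Markers of excitatory neurons were scarce in the sorted cells of both groups given GFP alone. Broader neuronal lists had larger sums there, but these rested on few of their genes. Snap25 and Syt1 averaged 6.35 and 2.52 CPM in NC-GFP and 156 and 159 CPM in mNLS, while Elavl3 averaged 217 and 177 CPM. The summed level of 7 excitatory neuron markers (among them Slc17a7, Neurod2 and Camk2a) lay between 11.1 and 16.5 CPM in NC-GFP, 14.1 and 49.4 CPM in cKO-GFP, and 249 and 769 CPM in mNLS. Slc17a7 was at 0 in 1 NC-GFP library. The sum of 10 pan-neuronal markers lay between 405 and 452 CPM in NC-GFP, 331 and 477 CPM in cKO-GFP, and 728 and 1519 CPM in mNLS, with Elavl3 and Map2 making up most of it in NC-GFP. The sum of 8 dentate granule neuron markers lay between 218 and 258, 134 and 228, and 249.7 and 475 CPM in the same order, most of it Prox1 in NC-GFP. Markers of oligodendrocytes summed to between 5050 and 18190 CPM over the 10 libraries. Those of microglia summed to between 5586 and 7424 CPM in NC-GFP, 5034 and 7539 CPM in cKO-GFP, and 2078 and 5142 CPM in mNLS. Of 10 microglia markers, 5 were called lower in mNLS than in cKO-GFP and 6 than in NC-GFP, with median log2 fold changes of -0.89 and -1.12. Over all tested genes, 7.13% and 3.25% were called lower. Markers of blood cells summed to between 24.9 and 129 CPM in NC-GFP, 114 and 447 CPM in cKO-GFP, and 3.46 and 20.5 CPM in mNLS. Of all tested genes, 8.93% were called higher in mNLS than in cKO-GFP and 8.23% than in NC-GFP. All 7 excitatory markers were called higher in mNLS than in cKO-GFP and 6 of 7 than in NC-GFP, beside every rise described below. The part of these markers, microglial ones included, in those rises was not tested, and in bulk RNA fewer cells of a type and less RNA per cell cannot be told apart.

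TDP-43 is known to bind RNA rich in alternating U and G, so such repeats in the channel transcripts are shown first. In the longest coding transcript of each gene in the GENCODE annotation of GRCm38, 6 of the 40 channel genes held an alternating TG run of at least 12 bases, a share of 15% against 6.59% of 21901 coding genes. Channel transcripts are long, and among transcripts of at least 4000 bases the shares were 6 of 28 (21.4%) and 14.3% of 6039. The windows of 30 bases are given 5′ to 3′ as DNA with the run in capitals.
Scn1a: tggtgcaTGTGTGTGTGTGTGTGcgtgtgt
Scn3a: tgtaccacaGTGTGTGTGTGTcctgagcaa
Scn8a: acatgtaTGTGTGTGTGTGTGTGaagaatg
Scn3b: gtgcaagcaTGTGTGTGTGTGcgcgcacat
Cacna1b: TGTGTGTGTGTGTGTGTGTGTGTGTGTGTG
Cacna1c: gtgtgtaTGTGTGTGTGTGTGTccatgaca
The Scn1a run of 16 bases lay in the 5′ UTR (chr2:66410020-66410049, minus strand), and all others lay in the 3′ UTR. Those of Scn3a (chr2:65459473-65459502, minus strand) and Scn3b (chr9:40291508-40291537, plus strand) were 12 bases long. The run of Scn8a (chr15:101045281-101045310, plus strand) was 16 bases long and that of Cacna1c (chr6:118590543-118590572, minus strand) 15. Cacna1b (chr2:24605009-24605038, minus strand) held the longest run of the channel genes, 45 bases, which fills its window. A run is a description of the transcript and not a measured binding site. In cKO-GFP against NC-GFP, the log2 fold changes of these genes were 1.62 for Cacna1b, 2.32 for Scn1a, 0.28 for Scn3a, -0.13 for Cacna1c, -0.34 for Scn3b and -0.38 for Scn8a, and none passed the test.

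The 250 bases before a RefSeq start, the one nearest the start of the gene in the deposited table, are shown for 3 genes with different patterns. Scn2a was high in mNLS alone, Cacnb3 was lowest in NC-GFP, higher in cKO-GFP and highest in mNLS, and Cacna1d had overlapping levels in mNLS and both other groups. The sequences are RefSeq's, on GRCm38.p6, 5′ to 3′, with matches on either strand in capitals. The letters searched were TATAAA for the TATA box, CCAAT for the CCAAT box, GGGCGG for the GC box and TGACGTCA for the cyclic AMP response element.
Scn2a: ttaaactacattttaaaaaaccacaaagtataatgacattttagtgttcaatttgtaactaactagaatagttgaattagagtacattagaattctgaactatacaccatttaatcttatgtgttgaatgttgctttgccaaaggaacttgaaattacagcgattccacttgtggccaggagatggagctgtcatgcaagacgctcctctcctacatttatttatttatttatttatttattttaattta
Cacnb3: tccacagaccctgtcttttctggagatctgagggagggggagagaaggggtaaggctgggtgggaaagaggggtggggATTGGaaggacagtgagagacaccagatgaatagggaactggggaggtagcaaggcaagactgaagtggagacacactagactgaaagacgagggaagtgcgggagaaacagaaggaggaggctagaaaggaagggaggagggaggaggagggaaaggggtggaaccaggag
Cacna1d: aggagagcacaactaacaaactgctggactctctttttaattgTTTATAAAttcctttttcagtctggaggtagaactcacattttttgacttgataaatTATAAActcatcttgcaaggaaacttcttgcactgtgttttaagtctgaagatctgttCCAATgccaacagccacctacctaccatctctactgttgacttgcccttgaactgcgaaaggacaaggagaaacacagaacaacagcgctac
The Scn2a window (chr2:65620519-65620768, plus strand) held no match, though the window of another RefSeq start of Scn2a held the TATA box letters. The Cacnb3 window (chr15:98632078-98632327, plus strand) held the CCAAT box letters on the opposite strand, 172 bases before the start. The Cacna1d window (chr14:30491157-30491406, minus strand) held the CCAAT box letters and 3 matches to those of the TATA box, of which a pair on opposite strands overlap. In the deposited table Cacnb3 starts at 98630840 and Cacna1d, on the minus strand, at 30491455. Both windows thus lie within the annotated genes. Other RefSeq windows of Cacnb3 and Cacna1d held the GC box letters. RefSeq windows were matched for 30 of the 40 genes. A gene was counted if any of its windows held the letters, so genes with more starts had more chances. Among those 30 genes, the GC box letters occurred in 15 (50%) against 35.4% of all 27025 genes with a window, and the CCAAT box letters in 10 (33.3%) against 37.5%. The TATA box letters occurred in 2 (6.67%) against 14.3%. The letters of the cyclic AMP response element, found in 1.77% of all genes, occurred in 0 of the 30 genes. A match is a description of these letters only.

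Most channel genes tested were higher in the cells that had received TDP-43mNLS. Against cKO-GFP, 24 of the 33 genes that passed the low-count filter were called higher and 0 lower by edgeR's quasi-likelihood test at an adjusted p under 0.05. Over all 20379 genes tested, 8.93% were called higher and 7.13% lower in that comparison. Against NC-GFP, 22 of the 33 were called higher and 0 lower, where 8.23% of all genes were called higher and 3.25% lower. The same 21 genes were called higher in both, and the 2 comparisons share the mNLS libraries. Scn7a, Scn9a, Cacng2 and Cacng3 passed the filter only through mNLS libraries, so their calls are not counted as support. Of the other 29, 21 were called higher against cKO-GFP and 20 against NC-GFP, with median log2 fold changes of 1.95 and 1.83, where the medians of all tested genes were -0.01 and -0.02. The remaining 7 genes, among them Scn4a, Scn10a, Scn11a, Cacna1f, Cacng1 and Cacng6, did not reach the filter. Cacng1 had no count in any library.

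The mNLS libraries were not alike. For 21 of the 24 genes called higher against cKO-GFP, mNLS library 2 was the highest of the 4, and for 18 of them library 4 was the lowest. The same counts over all tested genes were not made. Scn9a, Cacng2 and Cacng3, which passed the filter only through mNLS libraries, are among the 24. Library 2 also had the largest sum of excitatory markers (769 CPM) and library 4 the smallest (249 CPM). Markers of oligodendrocytes and of microglia summed to 6481 and 2078 CPM in library 2 and to 15798 and 5142 CPM in library 4. The part of any of these markers in the differences between libraries was not tested. Against cKO-GFP, the number of channel genes called fell to 14 without cKO-GFP library 3 and to 17 without cKO-GFP library 1, and lay between 21 and 25 without any other single library. Against NC-GFP it lay between 18 and 22. The plot of levels by library shows the genes by role.

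**Figure D1:**
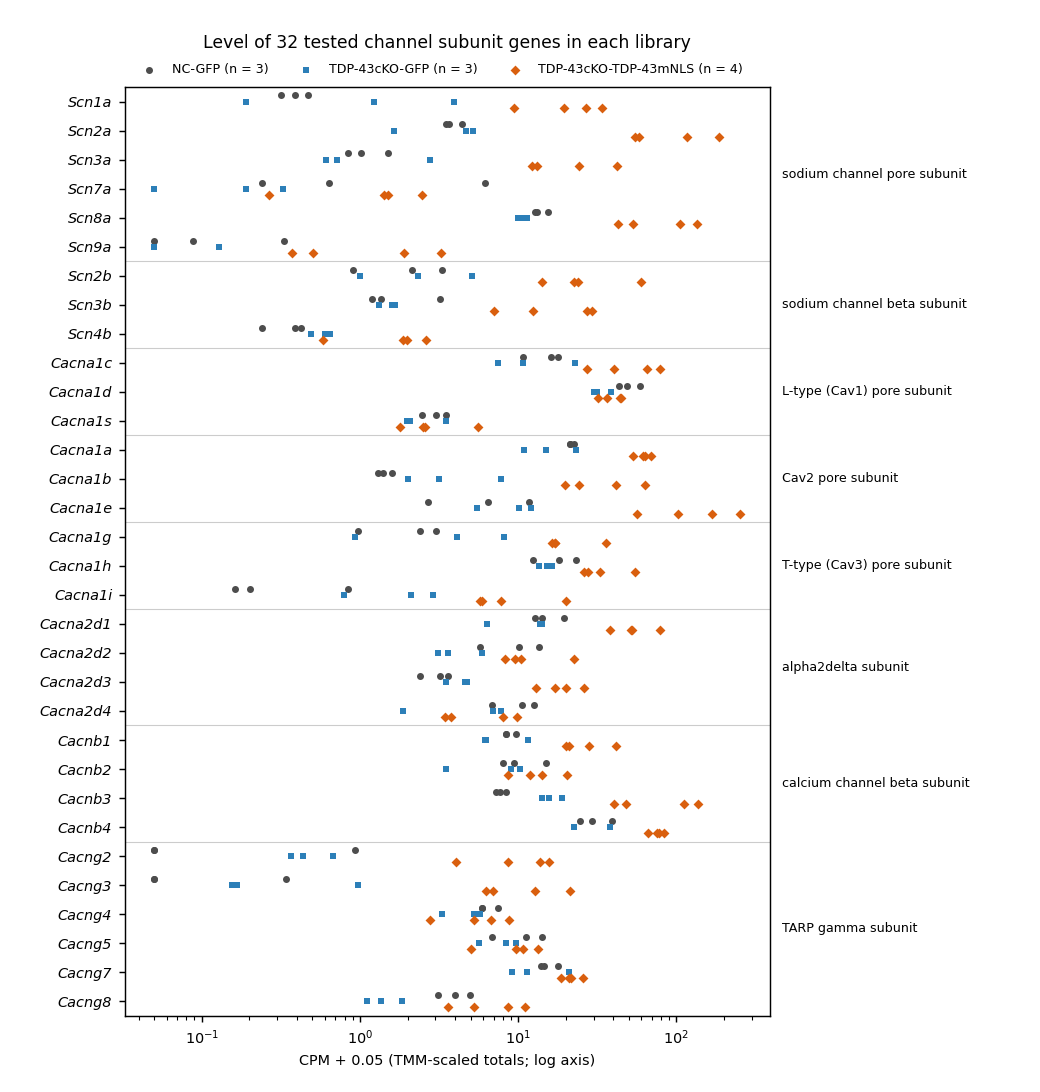
Level of 32 tested channel subunit genes in each library, in CPM plus 0.05 on a log axis, with genes grouped by role. Each mark is 1 library, and the mNLS libraries (orange diamonds) lie to the right of all others for most genes. They overlap at least 1 other group for Scn7a, Scn4b, Cacna1d, Cacna1s, Cacna2d2, Cacna2d4, Cacnb2, Cacng4, Cacng5, Cacng7 and Cacng8.

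Of the 6 sodium channel pore genes tested, 5 were called higher in mNLS than in cKO-GFP and 4 than in NC-GFP. Without Scn7a and Scn9a, which passed the filter only through mNLS libraries, 4 of 4 were called in each. Scn2a, which codes for Nav1.2 of the axon and axon initial segment of excitatory neurons, stood at 4.35, 3.45 and 3.62 CPM in NC-GFP, 1.58, 4.63 and 5.12 CPM in cKO-GFP, and 57.6, 185, 116 and 54.6 CPM in mNLS. Every mNLS library was above every other library, and the groups given GFP alone overlapped. The log2 fold change of Scn2a was 4.78 against cKO-GFP (SE 0.547, adjusted p = 0.00143) and 4.76 against NC-GFP (SE 0.548, adjusted p = 0.000719). Scn8a codes for Nav1.6, the channel of the mature initial segment and of nodes of Ranvier. It stood at 12.8, 13.2 and 15.3 CPM in NC-GFP, 10.5, 11.3 and 9.97 CPM in cKO-GFP, and 52.8, 135, 105 and 42.8 CPM in mNLS. All cKO-GFP libraries lay below all NC-GFP libraries, though this difference of -0.38 on the log2 scale was not called (adjusted p = 0.644), and all mNLS libraries lay above both. Scn8a was higher in mNLS by a log2 fold change of 2.99 against cKO-GFP (SE 0.368, adjusted p = 0.00167) and 2.61 against NC-GFP (SE 0.361, adjusted p = 0.00136).

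Scn3a, whose channel Nav1.3 is best known from the embryonic brain, stood at 0.961, 1.46 and 0.791 CPM in NC-GFP, 0.562, 2.71 and 0.67 CPM in cKO-GFP, and 13.2, 42.4, 24.3 and 12.3 CPM in mNLS. Its log2 fold change was 4.13 against cKO-GFP (SE 0.659, adjusted p = 0.00308), or 5.28 without cKO-GFP library 2, and 4.41 against NC-GFP (SE 0.674, adjusted p = 0.00204). Scn1a codes for Nav1.1, a channel most prominent in inhibitory interneurons. Its levels were 0.418, 0.268 and 0.339 CPM in NC-GFP, 0.141, 3.87 and 1.18 CPM in cKO-GFP, and 19.3, 33.6, 26.8 and 9.37 CPM in mNLS. The cKO-GFP libraries lay on both sides of NC-GFP, and mNLS lay above both. Against cKO-GFP its log2 fold change was 3.69 (SE 0.793, adjusted p = 0.0109). This became 5.16 without cKO-GFP library 2, and the call was lost without library 3 (3.54, adjusted p = 0.0735) and with no low-count filter (adjusted p = 0.0586). Against NC-GFP it was 6.01 (SE 0.937, adjusted p = 0.00225), which rests on 10, 7 and 6 counts in the NC-GFP libraries. The summed level of 8 markers of inhibitory neurons was 12.3 to 22.1 CPM in NC-GFP, 14.3 to 22.5 CPM in cKO-GFP and 4.25 to 22.7 CPM in mNLS.

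Scn9a (Nav1.7 of peripheral sensory neurons) was at 0, 0.0383 and 0.282 CPM in NC-GFP, 0, 0 and 0.0788 CPM in cKO-GFP, and 0.452, 3.18, 1.85 and 0.322 CPM in mNLS. It was called against cKO-GFP (adjusted p = 0.0315), where the cKO-GFP libraries held 2 counts in all, so no fold is given. That call was lost without each cKO-GFP library (adjusted p = 0.117, 0.0784 and 0.071 in their order), and the gene was not called against NC-GFP (adjusted p = 0.103). Scn7a, which codes for a sodium-sensing relative of the channels, lay between 0 and 6.1 CPM in all libraries with overlapping groups and was called in no comparison. The 5 genes Scn3a, Scn2a, Scn1a, Scn9a and Scn7a lie within 1328 kb of mouse chromosome 2 (GRCm38/mm10, 65457118 to 66784914).

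The sodium channel beta genes differed in how far they rose: 3 of 4 were called higher against cKO-GFP and 4 of 4 against NC-GFP. Scn2b, whose protein is joined to the pore by a disulfide bond, stood at 3.26, 2.07 and 0.847 CPM in NC-GFP, 2.28, 0.958 and 5.04 CPM in cKO-GFP, and 23.8, 59.7, 22.6 and 14.1 CPM in mNLS. Both groups given GFP alone overlapped and lay below mNLS, and the log2 fold changes were 3.44 against cKO-GFP (SE 0.674, adjusted p = 0.00724), or 4.26 without cKO-GFP library 3, and 3.85 against NC-GFP (SE 0.693, adjusted p = 0.00463).

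Scn3b, a beta subunit that is not bound to the pore by a disulfide bond, stood at 3.13, 1.15 and 1.3 CPM in NC-GFP, 1.62, 1.28 and 1.54 CPM in cKO-GFP, and 12.3, 29.3, 27.1 and 6.97 CPM in mNLS. The mNLS libraries lay above all others, by a log2 fold change of 3.67 against cKO-GFP (SE 0.563, adjusted p = 0.0026) and 3.34 against NC-GFP (SE 0.553, adjusted p = 0.00293), the latter 3.98 without NC-GFP library 1. Scn4b, the subunit known for resurgent sodium current, was low at 0.376, 0.192 and 0.339 CPM in NC-GFP, 0.597, 0.439 and 0.551 CPM in cKO-GFP, and 1.81, 2.58, 1.93 and 0.536 CPM in mNLS. Library 4 of mNLS lay within cKO-GFP. Scn4b was not called against cKO-GFP (1.68 on the log2 scale, adjusted p = 0.108) and was called without mNLS library 4 (adjusted p = 0.0398). Its call against NC-GFP (2.49, SE 0.696, adjusted p = 0.0389) was lost in 8 of the 10 fits that left out a library, with adjusted p up to 0.14. Scn2b and Scn4b are neighbours within 36.4 kb of chromosome 9 (45117782 to 45154152).

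Among calcium channel pores, the Cav2 genes of presynaptic calcium entry were all called higher in mNLS. Cacna1e codes for Cav2.3, the R-type channel. It stood at 11.6, 6.36 and 2.65 CPM in NC-GFP, 5.45, 10.1 and 11.9 CPM in cKO-GFP, and 103, 253, 168 and 56.3 CPM in mNLS. Every mNLS library was above all others, and the groups given GFP alone overlapped. Its log2 fold change was 3.98 against cKO-GFP (SE 0.619, adjusted p = 0.00312) and 4.39 against NC-GFP (SE 0.635, adjusted p = 0.00183), or 5.02 without NC-GFP library 1. Cacna1b, the N-type pore of transmitter release, stood at 1.55, 1.34 and 1.24 CPM in NC-GFP, 1.97, 7.74 and 3.11 CPM in cKO-GFP, and 24.1, 63.6, 41.5 and 19.6 CPM in mNLS. For Cacna1b the groups were fully ordered, with NC-GFP lowest, cKO-GFP between and mNLS highest. The step from NC-GFP to cKO-GFP was not called (1.62 on the log2 scale, SE 0.549, adjusted p = 0.167), while mNLS was higher by 3.12 against cKO-GFP (SE 0.524, adjusted p = 0.00378; 3.94 without cKO-GFP library 2) and by 4.75 against NC-GFP (SE 0.582, adjusted p = 0.000867).

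Cacna1a, the P/Q-type pore, was at 21.1, 22.4 and 21.3 CPM in NC-GFP, 10.9, 23.3 and 15 CPM in cKO-GFP, and 52.8, 63.5, 68.7 and 61.3 CPM in mNLS. The 4 mNLS libraries were close to each other, within 52.8 to 68.7 CPM, and above all others. The log2 fold changes were 1.91 against cKO-GFP (SE 0.23, adjusted p = 0.00147) and 1.51 against NC-GFP (SE 0.226, adjusted p = 0.00162). In cKO-GFP against NC-GFP, Cacna1a was not called (-0.40, adjusted p = 0.422) but was called lower without cKO-GFP library 2 (-0.78, adjusted p = 0.0451).

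Of the 3 L-type genes tested, which couple activity to gene expression, 1 was called. Cacna1c codes for Cav1.2, the main L-type channel of forebrain neurons. It stood at 17.7, 16.2 and 10.7 CPM in NC-GFP, 7.45, 22.7 and 10.6 CPM in cKO-GFP, and 40.3, 78.5, 65.2 and 27 CPM in mNLS. The mNLS libraries lay above the rest, with log2 fold changes of 1.95 against cKO-GFP (SE 0.439, adjusted p = 0.0131) and 1.83 against NC-GFP (SE 0.437, adjusted p = 0.0203). The first call was lost without cKO-GFP library 1 (adjusted p = 0.0503) or 3 (adjusted p = 0.0793), rose to 2.61 without library 2, and was lost with no low-count filter (adjusted p = 0.0568). The second was lost without any one NC-GFP library (adjusted p = 0.052, 0.0718 and 0.0982 in their order) and with no filter (adjusted p = 0.0905). Dcp1b, on the opposite strand, overlaps Cacna1c, and no source used here says whether the counting used strand.

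Cacna1d, the pore of Cav1.3, which opens at lower voltage, stood at 43.4, 48.6 and 58.5 CPM in NC-GFP, 30.3, 38.4 and 31.2 CPM in cKO-GFP, and 36.4, 43.9, 44.7 and 31.9 CPM in mNLS. All cKO-GFP libraries lay below all NC-GFP libraries, and the mNLS libraries overlapped both. No difference was called: the log2 fold change was -0.59 in cKO-GFP against NC-GFP (SE 0.18, adjusted p = 0.127), 0.24 in mNLS against cKO-GFP (SE 0.169, adjusted p = 0.391) and -0.35 in mNLS against NC-GFP (SE 0.167, adjusted p = 0.213). Dcp1a and Chdh overlap Cacna1d on the opposite strand, with group means of up to 49 and 33.4 CPM. Without strand, reads from any stretch where their exons and those of Cacna1d overlap could not be told apart. Whether the exons overlap was not examined. Cacna1s, the skeletal muscle pore, lay between 1.73 and 5.56 CPM in all libraries with overlapping groups and was not called.

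The T-type genes, whose channels open near rest and feed burst firing, were all called higher in mNLS. Cacna1h (Cav3.2) stood at 18, 23.1 and 12.3 CPM in NC-GFP, 15.1, 16.3 and 13.4 CPM in cKO-GFP, and 27.7, 32.7, 54.8 and 26 CPM in mNLS. The mNLS libraries lay above the others, and the log2 fold changes of Cacna1h were 1.24 against cKO-GFP (SE 0.287, adjusted p = 0.0143) and 0.98 against NC-GFP (SE 0.284, adjusted p = 0.0452). The first call was lost without cKO-GFP library 3 (adjusted p = 0.0654). The second stood at the threshold: it was lost in 7 of the 10 fits that left out a library, of which the highest adjusted p was 0.181 (without NC-GFP library 3, log2 fold change 0.78), and in the fits of only the compared groups (0.0658) and with the replicate number as a block (0.0694).

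Cacna1g (Cav3.1) stood at 0.919, 2.34 and 2.99 CPM in NC-GFP, 0.879, 8.1 and 4.06 CPM in cKO-GFP, and 17, 36.1, 17.1 and 16.3 CPM in mNLS. Its log2 fold change was 2.32 against cKO-GFP (SE 0.64, adjusted p = 0.0312) and 3.38 against NC-GFP (SE 0.684, adjusted p = 0.00855). Against cKO-GFP the call was lost without cKO-GFP library 1 (adjusted p = 0.0524) or 3 (0.134), without mNLS library 2 (0.0671) and with no low-count filter (0.119), and the log2 fold change was 3.20 without cKO-GFP library 2. Cacna1i (Cav3.3) stood at 0.794, 0.153 and 0.113 CPM in NC-GFP, 0.738, 2.83 and 2.05 CPM in cKO-GFP, and 5.7, 20.1, 7.73 and 5.9 CPM in mNLS. The groups given GFP alone overlapped through the first library of each. The log2 fold changes were 2.40 against cKO-GFP (SE 0.703, adjusted p = 0.0391) and 4.75 against NC-GFP (SE 0.822, adjusted p = 0.00358). The former call was lost without cKO-GFP library 1 or 3 (adjusted p = 0.131 in both), without mNLS library 2 (0.1) or 3 (0.0561) and with the replicate block (0.0687). The latter was 6.17 without NC-GFP library 1 and 4.14 without mNLS library 2. It rests on 19, 4 and 2 counts in the NC-GFP libraries.

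Of the 4 calcium channel beta genes, 3 were called higher in mNLS in both comparisons. Cacnb4, the beta subunit mutated in the lethargic mouse, stood at 38.9, 24.4 and 29.3 CPM in NC-GFP, 38, 38.1 and 22.6 CPM in cKO-GFP, and 75.4, 83.3, 66.5 and 77.2 CPM in mNLS. Its mNLS libraries lay above all others, and the log2 fold changes were 1.20 against cKO-GFP (SE 0.213, adjusted p = 0.00446) and 1.29 against NC-GFP (SE 0.214, adjusted p = 0.00285). Cacnb3, a beta subunit of N-type and L-type channels, stood at 7.23, 8.31 and 7.63 CPM in NC-GFP, 15.7, 18.9 and 14.2 CPM in cKO-GFP, and 112, 136, 40.2 and 47.9 CPM in mNLS. As with Cacna1b, the 3 groups did not overlap. The first step was not called (1.07 on the log2 scale, SE 0.403, adjusted p = 0.207), though it was in a fit of these 2 groups alone, and mNLS was higher by 2.37 against cKO-GFP (SE 0.395, adjusted p = 0.0037) and 3.44 against NC-GFP (SE 0.42, adjusted p = 0.000843).

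Cacnb1, the beta subunit of muscle that is also found in brain, stood at 8.31, 8.31 and 9.6 CPM in NC-GFP, 6.15, 11.5 and 6.22 CPM in cKO-GFP, and 20.9, 41.8, 27.9 and 20.1 CPM in mNLS, with mNLS above the rest. Its log2 fold changes were 1.80 against cKO-GFP (SE 0.312, adjusted p = 0.00395) and 1.66 against NC-GFP (SE 0.31, adjusted p = 0.00519). Cacnb2, the cardiac beta subunit that the brain also makes, stood at 7.98, 9.35 and 15 CPM in NC-GFP, 10.3, 9.02 and 3.47 CPM in cKO-GFP, and 14.2, 20.2, 11.8 and 8.61 CPM in mNLS. Its groups overlapped, and it was not called against cKO-GFP (0.85 on the log2 scale, adjusted p = 0.179) or NC-GFP (0.35, adjusted p = 0.652).

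The alpha2delta genes code for extracellular subunits that bring channels to the membrane, and 3 of 4 were called higher against cKO-GFP and 2 against NC-GFP. Cacna2d1, a target of gabapentin, stood at 19.5, 14.1 and 12.7 CPM in NC-GFP, 14, 13.6 and 6.3 CPM in cKO-GFP, and 37.9, 78.2, 52.2 and 51.6 CPM in mNLS, which lay above the rest. It was higher in mNLS by a log2 fold change of 2.28 against cKO-GFP (SE 0.325, adjusted p = 0.00202) and 1.83 against NC-GFP (SE 0.318, adjusted p = 0.00362). Cacna2d3 stood at 2.34, 3.14 and 3.56 CPM in NC-GFP, 4.71, 4.59 and 3.43 CPM in cKO-GFP, and 17.1, 26.2, 20 and 13 CPM in mNLS. The mNLS libraries lay above the others, which overlapped. Its log2 fold changes were 2.17 against cKO-GFP (SE 0.289, adjusted p = 0.00183) and 2.66 against NC-GFP (SE 0.299, adjusted p = 0.000618), the smallest adjusted p of the channel genes.

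Cacna2d2, the other known target of gabapentin, stood at 10, 5.71 and 13.6 CPM in NC-GFP, 3.06, 5.82 and 3.55 CPM in cKO-GFP, and 22.5, 10.3, 9.46 and 8.26 CPM in mNLS. It was lowest in cKO-GFP, and only the NC-GFP range overlapped both others. Cacna2d2 was called higher in mNLS, by 1.61 on the log2 scale against cKO-GFP (SE 0.428, adjusted p = 0.0262), and not called against NC-GFP (0.37, adjusted p = 0.64). The call was lost without cKO-GFP library 1 (adjusted p = 0.1) or 3 (0.113), without mNLS library 1 (1.18, adjusted p = 0.0541) and with the replicate block (0.0571). Cacna2d4, known from the retina, lay between 1.81 and 12.5 CPM in all libraries with overlapping groups and was not called. Lrtm2 overlaps it on the opposite strand.

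Of the 6 TARP genes, 3 were called higher in mNLS than in cKO-GFP and 2 than in NC-GFP. Without Cacng2 and Cacng3, which passed the filter only through mNLS libraries, these counts were 1 of 4 and 0 of 4. Cacng3 codes for gamma-3, a TARP of forebrain neurons. It stood at 0.292, 0 and 0 CPM in NC-GFP, 0.105, 0.918 and 0.118 CPM in cKO-GFP, and 6.85, 21.1, 12.7 and 6.18 CPM in mNLS. Cacng2 codes for stargazin, the founding TARP. It stood at 0.877, 0 and 0 CPM in NC-GFP, 0.387, 0.319 and 0.63 CPM in cKO-GFP, and 13.7, 15.7, 8.57 and 3.97 CPM in mNLS. Both had counts in every mNLS library well above all others. Against cKO-GFP the log2 fold change was 4.94 for Cacng3 (SE 0.998, adjusted p = 0.00835) and 4.54 for Cacng2 (SE 1.04, adjusted p = 0.0141). Cacng3 moved to 6.71 without cKO-GFP library 2 and lost its call without library 3 (adjusted p = 0.0506). Cacng2 lost its call without cKO-GFP library 1 (adjusted p = 0.0602) or 3 (0.0665) and with no low-count filter (0.0593). Against NC-GFP both were called (adjusted p = 0.00351 for Cacng3 and 0.0113 for Cacng2). Their counts in NC-GFP, 7 for Cacng3 and 21 for Cacng2, came from library 1 alone, so no fold is given, and Cacng2 was not called there with no filter (adjusted p = 0.0552).

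Cacng8, the gamma-8 TARP that is concentrated in the hippocampus, stood at 3.05, 4.9 and 3.95 CPM in NC-GFP, 1.05, 1.8 and 1.3 CPM in cKO-GFP, and 5.18, 11, 8.53 and 3.57 CPM in mNLS. All cKO-GFP libraries lay below every other library. The log2 fold change of mNLS against cKO-GFP was 2.35 (SE 0.447, adjusted p = 0.00616), and neither cKO-GFP against NC-GFP (-1.52, SE 0.455, adjusted p = 0.124) nor mNLS against NC-GFP (0.83, adjusted p = 0.245) was called. Cacng7, a TARP also known in glia, stood at 14.5, 14 and 17.7 CPM in NC-GFP, 9.14, 21 and 11.3 CPM in cKO-GFP, and 25.6, 18.7, 21 and 21.6 CPM in mNLS. It was not called against cKO-GFP (0.65 on the log2 scale, adjusted p = 0.121) but was without cKO-GFP library 2 (1.15, adjusted p = 0.00686). Cacng5, a TARP with weak effects on AMPA receptors, stood at 6.81, 14.1 and 11.2 CPM in NC-GFP, 8.33, 9.58 and 5.63 CPM in cKO-GFP, and 10.7, 5.01, 13.2 and 9.58 CPM in mNLS. Its groups overlapped, as did those of Cacng4, a TARP of precursor and young cells, in mNLS against both others, where all libraries lay between 2.72 and 8.69 CPM. Neither gene was called. Cacng7 and Cacng8 lie within 103 kb of chromosome 7 together with the muscle-type Cacng6, which had no count in 7 of the 10 libraries.

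**Figure D2:**
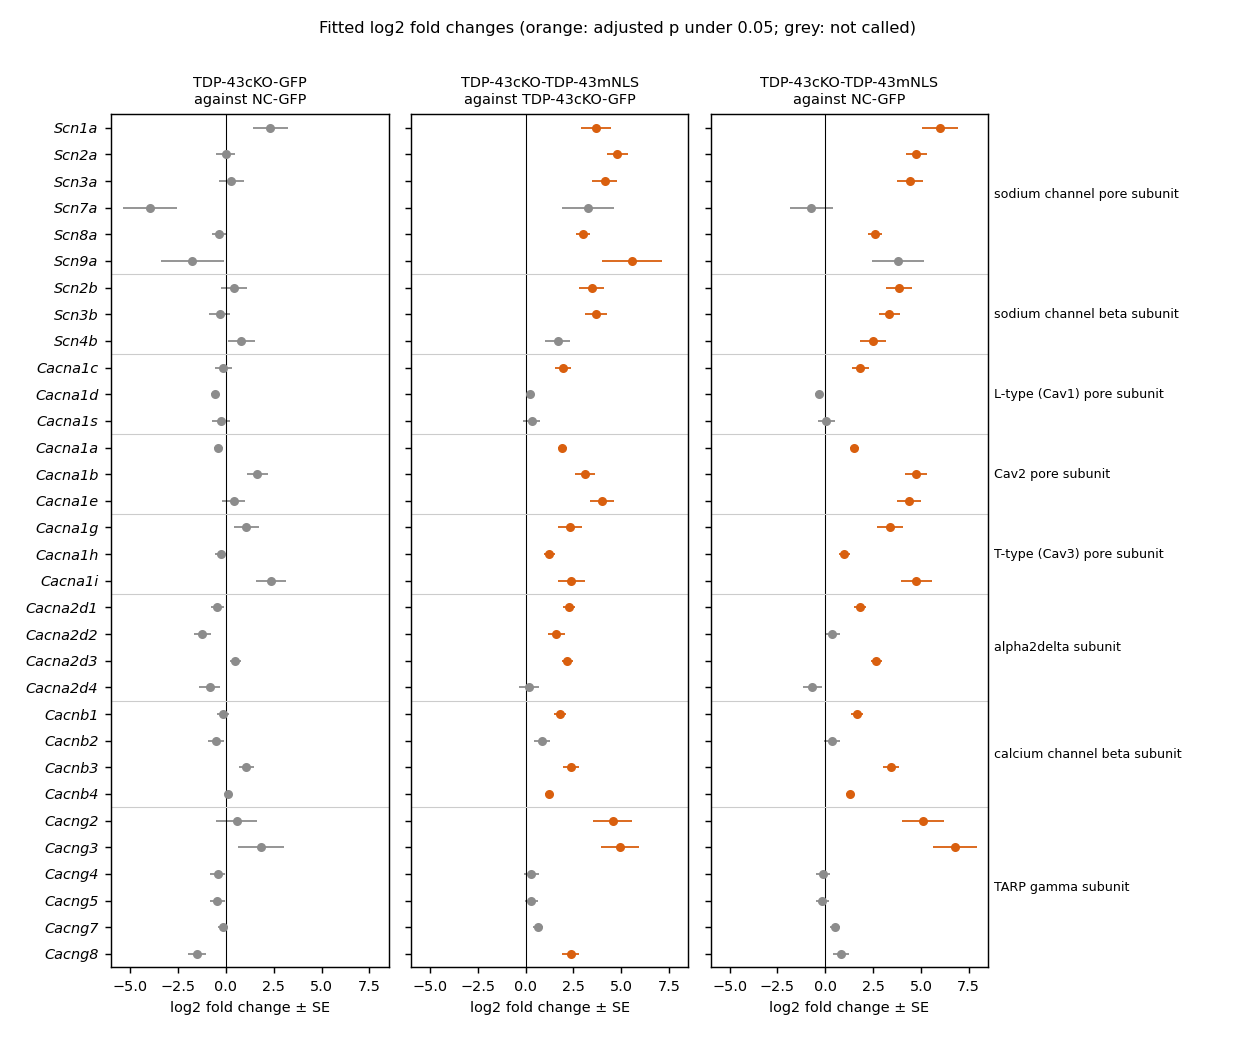
Log2 fold change with its standard error for 32 tested channel subunit genes in each of the 3 comparisons, from the edgeR fit, with genes grouped by role. Orange marks are genes with an adjusted p under 0.05. Of the genes drawn there are 0 in the left panel, 23 in the middle and 21 on the right. These include Cacng2 and Cacng3 in both panels, and Scn9a in the middle, which passed the filter only through mNLS libraries.

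The floxed genotype with GFP alone gave no call among these genes. In cKO-GFP against NC-GFP, 0 of the 33 channel genes were called by edgeR, where 1.63% of all tested genes were (333 of 20379), 0.53% higher and 1.1% lower. At an unadjusted p under 0.05 there were 8 of 33, where 16.8% of all tested genes were. Scn1a, Cacna1b, Cacna1i and Cacnb3 had positive log2 fold changes (2.32, 1.62, 2.36 and 1.07), and Scn7a, Cacng8, Cacna2d2 and Cacna1d had negative ones (-3.98, -1.52, -1.23 and -0.59). The DESeq2 Wald test called 5 of them, Cacna1b, Cacna1i, Scn7a, Cacng8 and Cacna1d. The Scn7a value rested on 108 counts in NC-GFP library 3. The groups did not overlap for 3 genes that were higher in cKO-GFP (Cacna1b, Cacnb3 and Scn4b) and for 4 that were lower (Cacng8, Cacna1d, Scn8a and Cacng4), shares near those of all tested genes, 13.6% and 11.4%.

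Markers of other cells moved in the same comparison. The summed level of 10 astrocyte markers lay between 3690 and 4289 CPM in NC-GFP, 1082 and 1736 CPM in cKO-GFP, and 1743 and 4163 CPM in mNLS, and 6 of the 10 were called lower in cKO-GFP than in NC-GFP. None of those markers was at 0 throughout, and 1.1% of all tested genes were called lower in that comparison. The sum of 8 oligodendrocyte precursor markers lay between 72.9 and 87.2 CPM in NC-GFP and 170 and 203 CPM in cKO-GFP. In mNLS it lay between 125 and 162 CPM. Of these 8, 2 were called higher in cKO-GFP than in NC-GFP, where 0.53% of all tested genes were. Of the oligodendrocyte, microglia, endothelial and mural markers, 0 were called in that comparison. Within cKO-GFP, library 1 had the lowest sum of excitatory markers (14.1 CPM against 49.4 and 33.6) and was the lowest of the 3 for 18 of the 33 tested channel genes, Scn1a, Scn2a and Cacna1b among them. It was the highest for 5, Cacnb2, Cacna2d1, Cacna2d3, Scn3b and Scn4b. The same counts over all tested genes were not made, and genes of the same library are not independent. The part of these cell markers in the channel differences was not tested.

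Set against the excitatory markers, most channel genes were no longer above the other groups in mNLS, where the marker sum itself rose. That sum averaged 13.7 CPM in NC-GFP, 32.4 CPM in cKO-GFP and 438 CPM in mNLS. The ratio falls wherever the sum rises more than the gene, and it rests on a low sum in both groups given GFP alone. What neuronal content contributes to the channel rises was not tested and cannot be read from these ratios. The summed level of all channel genes for every 100 CPM of these markers had means of 2176 (SD 482), 977 (SD 562) and 266 CPM (SD 53.2) over the NC-GFP, cKO-GFP and mNLS libraries. The mNLS ratios lay below all others for 18 of the 33 tested genes and above all others for 1, Cacng3, which passed the filter only through mNLS libraries. Of the 24 genes called higher against cKO-GFP, they lay below all others for 10, Scn8a, Cacna1a, Cacna1c, Cacnb1 and Cacna2d1 among them. For every 100 CPM of summed excitatory markers, Scn2a stood at 32.1, 20.8 and 32.5 CPM in NC-GFP, 11.2, 9.37 and 15.3 CPM in cKO-GFP, and 21.5, 24.1, 24.9 and 21.9 CPM in mNLS. The 4 mNLS ratios were close together although their Scn2a levels spanned 54.6 to 185 CPM, and they lay above all cKO-GFP ratios and overlapped NC-GFP. Cacna1e stood at 85.8, 38.4 and 23.9 in NC-GFP, 38.6, 20.5 and 35.6 in cKO-GFP, and 38.3, 32.9, 35.9 and 22.6 in mNLS on the same scale, and its groups overlapped. Scn8a stood at 94.4, 79.6 and 138 in NC-GFP, 74.1, 22.8 and 29.7 in cKO-GFP, and 19.7, 17.5, 22.4 and 17.2 in mNLS, which lay just below the lowest of the others. Cacna1d stood at 321, 294 and 526 in NC-GFP, 214, 77.8 and 93.1 in cKO-GFP, and 13.6, 5.71, 9.59 and 12.8 in mNLS. The mNLS ratios of Cacna1d lay below all others, since its CPM stayed within 30.3 to 58.5 while the marker sum rose. These ratios were chosen after the values had been seen and carry no test.

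**Figure D3:**
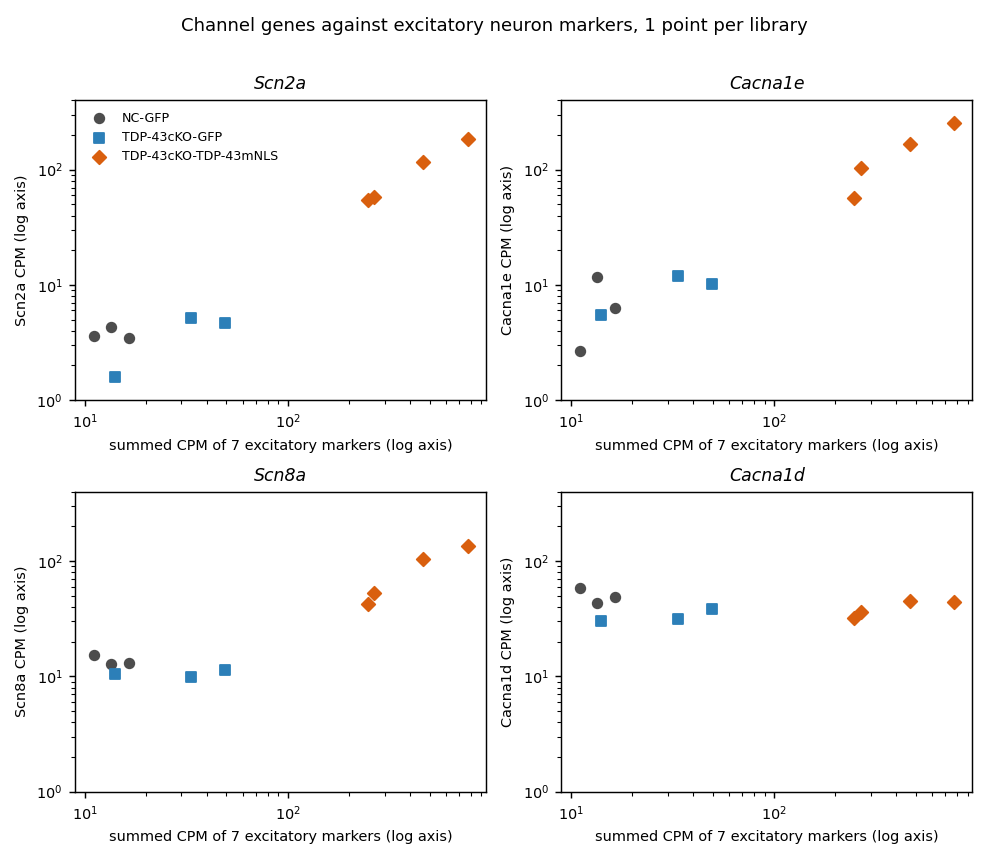
CPM of Scn2a, Cacna1e, Scn8a and Cacna1d against the summed CPM of 7 excitatory neuron markers, both on log axes, with 1 mark per library. The first 3 genes were high in the mNLS libraries, where the marker sum was 249 to 769 CPM, while Cacna1d lay between 30.3 and 58.5 CPM over the whole range.

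The make-up of each family also differed, as read from the deposited TPM, a measure scaled by length. These values did not follow the gene-level counts closely. In NC-GFP libraries 1 and 2, Scn2a had 104 and 90 counts but TPM of 1.68 and 0.448. Levels of different genes are thus compared only roughly. Of the summed TPM of the sodium channel pores, Scn8a held 56.7% ± 11.7 in NC-GFP, 52.8% ± 10.7 in cKO-GFP and 34.1% ± 4.19 in mNLS (each ± is the SD over 3, 3 and 4 libraries, here and in the shares that follow). Scn2a held 29.3% ± 13.7, 25.6% ± 4.42 and 42.1% ± 3.45 in the same order. Every mNLS library had more Scn2a than Scn8a, and every other library had more Scn8a than Scn2a, while the Scn2a share of NC-GFP library 1 lay within the mNLS range. In shares of CPM, Scn2a held 22.7%, 18.3% and 13.5% in the NC-GFP libraries and 39.5% to 46% in mNLS, without overlap. The shares are descriptions and were not tested.

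Of the summed TPM of the calcium channel pores, Cacna1d held 37.3% ± 6.48 in NC-GFP, 30.7% ± 5.99 in cKO-GFP and 12.5% ± 2.94 in mNLS. Cacna1e held 3.64% ± 2.53, 5.06% ± 1.16 and 23.1% ± 8.97. The ranges of the mNLS libraries did not meet those of the others for either gene. Among TARPs, Cacng7 held the largest mean share in every group (45.2% ± 5.1, 53.9% ± 3.62 and 37.3% ± 9.37). Cacng3 held 0.801% ± 1.39, 2.87% ± 4.23 and 22.2% ± 7.14, but it passed the filter only through mNLS libraries, so this is not counted as support. Of the calcium channel beta TPM, Cacnb4 held 56.1% ± 4.06, 56.4% ± 11 and 54% ± 13.7, with overlapping ranges. Cacnb3 held 11.7% ± 0.901, 22.3% ± 7.56 and 29.1% ± 13.3, and Cacnb2 held 16.6% ± 2.8, 9.36% ± 3.77 and 6.09% ± 1.53. For Cacnb3 and Cacnb2 the NC-GFP range met neither of the others. In shares of CPM, Cacnb4 averaged 52.8%, 50.7% and 39.8%, again with overlapping ranges, and the Cacnb2 ranges of NC-GFP and cKO-GFP overlapped.

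**Figure D4:**
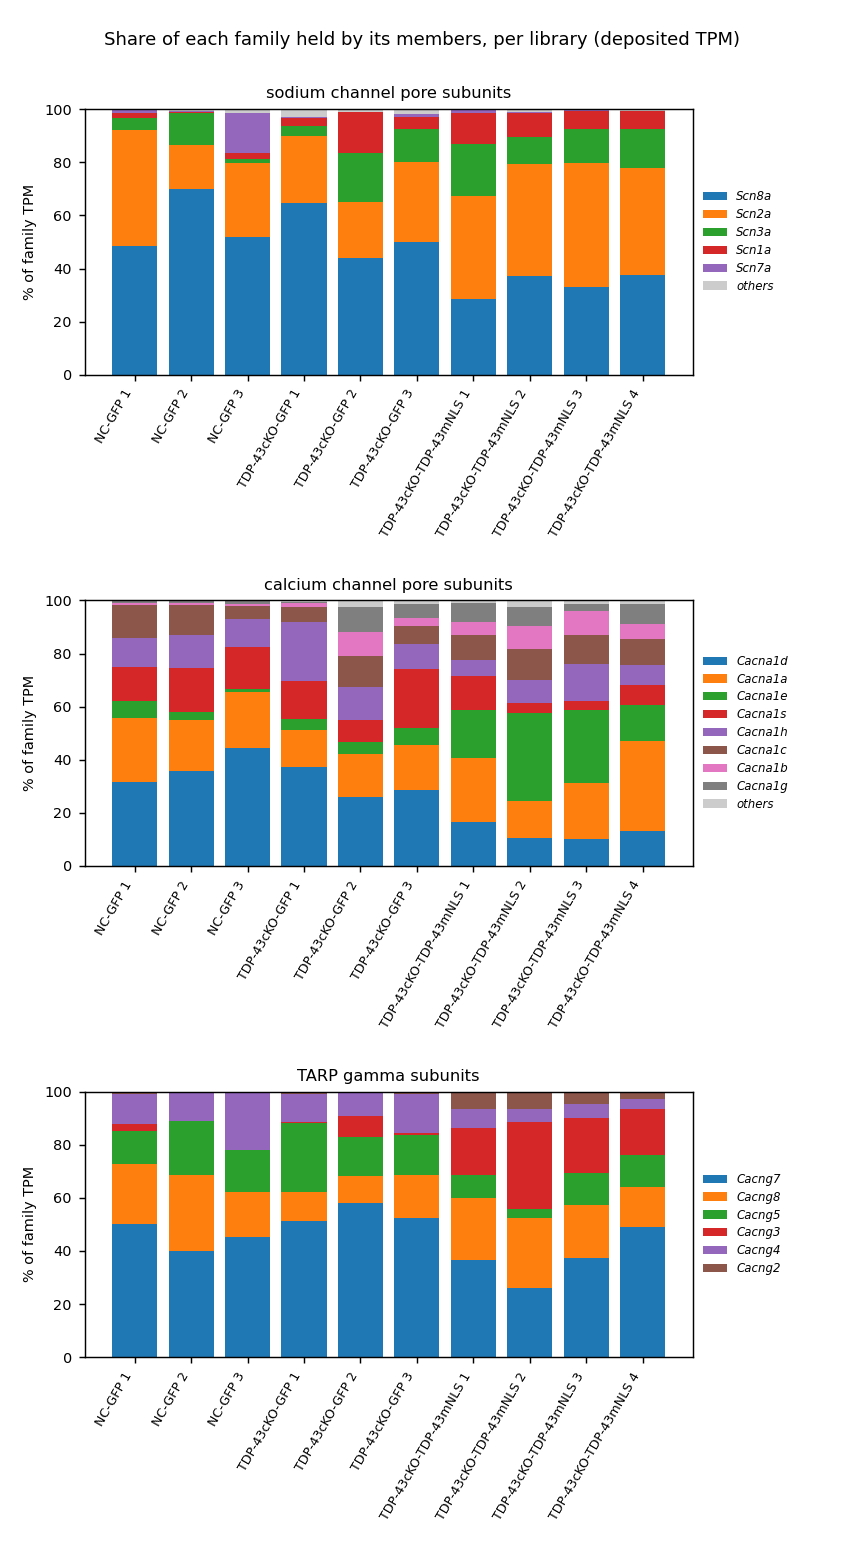
Share of the summed deposited TPM of each family held by its members, in percent, with 1 bar per library; members that never reach 5% are grouped as others. Cacna1e and Cacng3 take larger shares in the 4 mNLS libraries than in the 6 libraries given GFP alone. Cacng3 passed the low-count filter only through mNLS libraries, so its larger share there is not counted as support.

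Many partners of the channels were also higher in mNLS. Of 33 genes for proteins that bind, anchor or regulate these channels, 30 were tested, and 16 were higher in mNLS than in cKO-GFP and 18 than in NC-GFP, with 0 lower in either. The median log2 fold changes of the 30 were 0.86 and 0.98. Over all tested genes, 8.93% and 8.23% were called higher in these comparisons, and 7.13% and 3.25% lower. Fgf12 and Fgf13, intracellular partners of sodium channels, averaged 12.7 ± 3.01 and 11.7 ± 4.29 CPM in mNLS (SD, n = 4) against 1.96 ± 0.355 and 1.83 ± 0.456 CPM in cKO-GFP (SD, n = 3), log2 fold changes of 2.69 and 2.68 (adjusted p = 0.00187 for each). Mapk8ip2, a scaffold protein, was higher by 2.76 against cKO-GFP (SE 0.313, adjusted p = 0.00143) and by 3.18 against NC-GFP (SE 0.321, adjusted p = 0.000555). Camk2a and Camk2b, the subunits of calcium/calmodulin-dependent kinase II, were higher than in NC-GFP by 4.42 and 4.50 (adjusted p = 0.000823 and 0.000609), and Camk2a is also 1 of the excitatory markers. In cKO-GFP against NC-GFP, 0 of the 30 were called, where 1.63% of all tested genes were.

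Of 16 genes for AMPA receptor subunits and their other partners, whose receptors the TARPs carry, 12 were higher in mNLS than in cKO-GFP and 11 than in NC-GFP, with median log2 fold changes of 2.68 and 2.53. Over all tested genes, 8.93% and 8.23% were called higher in these comparisons. Gria2, the subunit that blocks calcium entry through AMPA receptors, had a mean of 155 CPM (SD 26.4, n = 3) with NC-GFP, 39.7 CPM (SD 11.5, n = 3) with cKO-GFP and 221 CPM (SD 93, n = 4) with mNLS. It was the 1 gene of this list called in cKO-GFP against NC-GFP, where it was lower by a log2 fold change of -1.96 (SE 0.341, adjusted p = 0.0168), and it was higher in mNLS than in cKO-GFP by 2.47 (SE 0.335, adjusted p = 0.00187). Gria3 averaged 28.8 ± 12.2 CPM in mNLS (SD, n = 4) and 1.27 ± 1.15 CPM in NC-GFP (SD, n = 3), a log2 fold change of 4.54 (adjusted p = 0.00285). Dlg4, the postsynaptic scaffold PSD-95, was higher in mNLS than in cKO-GFP by 1.66 (SE 0.25, adjusted p = 0.00248), and Olfm1, a secreted AMPA receptor partner, by 1.96 (SE 0.311, adjusted p = 0.00297). Against NC-GFP, Olfm1 was higher by 2.45 (adjusted p = 0.00102) and Shisa7, another membrane partner, by 3.36 (adjusted p = 0.00208). The astrocyte marker sum given above was also lowest in cKO-GFP, and its part in the Gria2 difference was not tested.

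The channel genes are long, which was not used to choose them. The 33 tested had a median genomic span of 111 kb, against 24.9 kb for the 15206 tested protein-coding genes. Across these 33 genes, span and log2 fold change had Spearman's rho of -0.12 in cKO-GFP against NC-GFP, 0.09 in mNLS against cKO-GFP and 0.07 in mNLS against NC-GFP, as descriptions across genes that are not independent replicates. Cacna2d3, which spans 817 kb, and Scn2b, which spans 12.3 kb, were both called higher in mNLS.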

How the data were processed

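Cells positive for GFP were sorted from pools of animals and sequenced as bulk RNA, giving 10 libraries in 3 groups. The authors deposited 1 table of estimated counts and TPM per gene and library, per the file headers. Per the submitters' processing notes, DRAGEN was used with GRCm38/mm10. The DRAGEN version, the annotation release, strand use and counting settings are not given in the sources. Of the estimated counts, 5.84% were not whole, and all were rounded. Genes were filtered with filterByExpr (minimum count 10) and scaled by TMM. One edgeR 4.0.16 quasi-likelihood model (R 4.3.3, Benjamini-Hochberg adjustment over all genes tested, threshold 0.05) held all 3 groups, with 7 residual degrees of freedom, and CPM used the TMM totals. The procedure was tested on simulated data. Alternatives were DESeq2 size factors, the DESeq2 1.42.0 Wald test, no low-count filter, only the compared groups, the replicate number as a block, each library left out, and TPM for levels. Each sum over a marker list is a description.

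All channel genes were accounted for, and values in every library were printed for reported genes with a mean of at least 10 CPM in a group or a call in a comparison. Up to 3 called partner genes of smallest p were named in each direction and comparison. The genes and lists were chosen with earlier results of these data known. The ratio to excitatory markers was chosen after the values were seen. Genes under about 1 CPM rest on few counts. Some genes and their values are not reported here, though they remain in the counts.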

Additional observations from a re-analysis of the deposited data

Results flagged for a closer look

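Of the 33 channel genes tested for 1 library far from the others within the mNLS group of 4, 3 stood out, and chance alone marks about 1 in 20 groups. Cacna2d2 reached 22.5 CPM in mNLS library 1, where the other 3 libraries lay between 8.26 and 10.3 CPM. Cacna1g reached 36.1 CPM in mNLS library 2, where the others lay between 16.3 and 17.1 CPM. Cacna1i reached 20.1 CPM in mNLS library 2, where the others lay between 5.7 and 7.73 CPM. Library 2 also had the largest sum of excitatory markers, 769 CPM, and the part of those markers was not tested.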

How the results depend on the processing

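The number of channel genes called in cKO-GFP against NC-GFP was 5 by DESeq2 and 1 in a fit of only the 2 groups, and lay between 0 and 1 with a library left out. For all genes in that comparison the 333 calls became 1391 by DESeq2, 754 with only the 2 groups and 176 with the replicate block, and lay between 61 (without NC-GFP library 3) and 755 (without cKO-GFP library 2). With a library left out, calls in mNLS against cKO-GFP lay between 14 and 25 for channel genes and between 1178 and 3629 for all genes. In mNLS against NC-GFP they lay between 18 and 22 for channel genes and between 1217 and 2603 for all genes, and DESeq2 called 3567 of all genes. Replicate numbers were shared by the groups, but same-numbered libraries did not deviate together, with correlations from -0.145 to 0.059. Those of differently numbered libraries lay between -0.159 and 0.166. With so few libraries this cannot tell whether a number marks a shared day or litter, which the labels do not state. With the replicate block, 0, 23 and 21 channel genes were called in the 3 comparisons, and the log2 fold change changed sign for Cacna2d4 against cKO-GFP (-0.0115) and for Scn7a (1.04) and Cacng4 (0.12) against NC-GFP, none of which was called. With a library left out, log2 fold changes that changed sign in cKO-GFP against NC-GFP ranged from -0.086 to 0.28 for Cacnb4, -0.84 to 0.61 for Scn3a, -0.33 to 0.32 for Scn2a, -4.37 to 0.31 for Scn9a, -0.75 to 0.13 for Cacna1c, -0.63 to 0.034 for Cacng7, -0.63 to 0.25 for Scn3b, -0.38 to 0.86 for Scn2b and -0.091 to 6.46 for Cacng2. Against cKO-GFP in mNLS they ranged from -0.14 to 0.69 for Cacna1s and -0.19 to 0.56 for Cacna2d4. Against NC-GFP in mNLS they ranged from -0.40 to 0.25 for Cacna1s, -1.24 to 1.80 for Scn7a, -0.060 to 0.68 for Cacna2d2, -0.39 to 0.15 for Cacng4 and -0.37 to 0.12 for Cacng5. The cause was not tested. Depth limits Scn9a, Cacng2 and Cacng3, which rest on few counts in the groups given GFP alone. Scn1a, Scn4b and Cacna1i also rest on few counts in NC-GFP.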
